A study of Mus musculus with 15 samples.

Results

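The nuclear-encoded subunits of oxidative phosphorylation were followed in mouse perigonadal fat, the depot beside the gonads, in weight loss, obese and lean mice. The members were all protein-coding genes of the count table whose symbol marks a subunit of a respiratory complex or of ATP synthase, with the Ndufaf assembly factors left out. They came to 88 genes of 35794 Entrez IDs. Of these 38 belong to complex I, 4 to complex II, 9 to complex III, 20 to complex IV and 17 to complex V, with Ndufa4 and Ndufa4l2 counted with complex IV, where the Ndufa4 protein sits. In all, 85 members passed the filter on low counts. The exceptions were Ndufb4b and Ndufb4c, with no count in any library, and Cox7b2, which had counts in 1 obese library.

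Oxidative phosphorylation turns the oxidation of NADH and succinate into ATP at the inner mitochondrial membrane. Complexes I and II pass electrons to ubiquinone, complex III passes them to cytochrome c, and complex IV reduces oxygen, while complexes I, III and IV pump protons that drive the ATP synthase, complex V. In white adipocytes this machinery supplies energy for lipid synthesis and turnover, and several complex IV subunits exist as paralogues that tissues use to different degrees.

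Poly(A) RNA of C57BL/6 mice was sequenced, all aged 14 weeks. The weight loss mice were fed a 60% high-fat diet from 8 weeks of age for 5 weeks and then chow for 1 week (4 libraries). Obese mice ate the 60% high-fat diet and were killed together with the others (5 libraries), although the labels do not spell out their last week, and lean mice ate chow throughout (5 libraries). The series describes the samples as independent. Levels are CPM, counts over each library's size after scaling by trimmed mean of M values (TMM), set to a common total of 1000000, and differences are log2 fold changes ± standard error (SE) from edgeR's quasi-likelihood test, called at a Benjamini-Hochberg adjusted p below 0.05 over 15208 genes. In whole-tissue RNA, fewer cells of a type and less RNA per cell cannot be told apart.

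The 14 libraries held between 13924729 and 33807807 counts, and the members took 1.41% to 2.49% of them. All 12 adipocyte markers were detected, with a summed level of 37851 to 54627 CPM in weight loss, 36243 to 46276 CPM in obese and 39068 to 53971 CPM in lean fat. Markers of the epididymis, of which 14 of 18 passed the filter, summed to 0.790 to 103 CPM in weight loss, 10.2 to 6041 CPM in obese and 1.31 to 2733 CPM in lean fat. Obese replicates 2, 4 and 5 and lean replicate 1 were above 1000 CPM. A further library, weight loss replicate 5, was nearly empty and entered no comparison.

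Members of all 5 complexes were detected in every library. Per kilobase of the principal transcript, and averaged over all libraries, the most abundant members were Cox6a1 (1118 CPM per kilobase) of complex IV, Atp5g3 (851) of complex V, Uqcrh (637) of complex III, Ndufa3 (577) of complex I and Sdha (163) of complex II. Cox6a1 is the liver-type form of subunit 6a, Atp5g3 encodes the membrane-embedded c subunit, Uqcrh is the hinge protein of complex III, and Sdha carries the flavin of succinate dehydrogenase.

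The summed level of the members overlapped between the groups. It was 14275, 18569, 16358 and 25769 CPM in weight loss replicates 1 to 4, 16055, 15729, 22257, 18246.5 and 21731 CPM in obese replicates 1 to 5, and 17753, 22019, 23367, 21161 and 22336.5 CPM in lean replicates 1 to 5. Weight loss replicate 4 was higher than every other library and weight loss replicate 1 lower than every other, so the weight loss group spanned the whole range. Within the weight loss group, replicate 4 had the highest level in 77 of 85 members, or 90.6%, against 31.7% of all genes. Replicate 1 had the lowest level in 66 of 85, against 29.5% of all genes. The median member differed 1.91-fold between the highest and lowest weight loss library, 1.58-fold among obese and 1.57-fold among lean libraries. Summed adipocyte markers were likewise higher in weight loss replicate 4 (54627 CPM) than in the other weight loss libraries, at 37851 to 43195 CPM. The sum leans on its most abundant genes. One of these, Cfd, was at 12561 CPM in weight loss replicate 4 and 5027 to 6589 CPM in the other weight loss libraries. Lep, another of the 12 markers, was lower in weight loss replicate 4, at 498 CPM against 584 to 793 CPM in the others. The part of these markers in the members' spread was not tested.

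**Figure D1:**
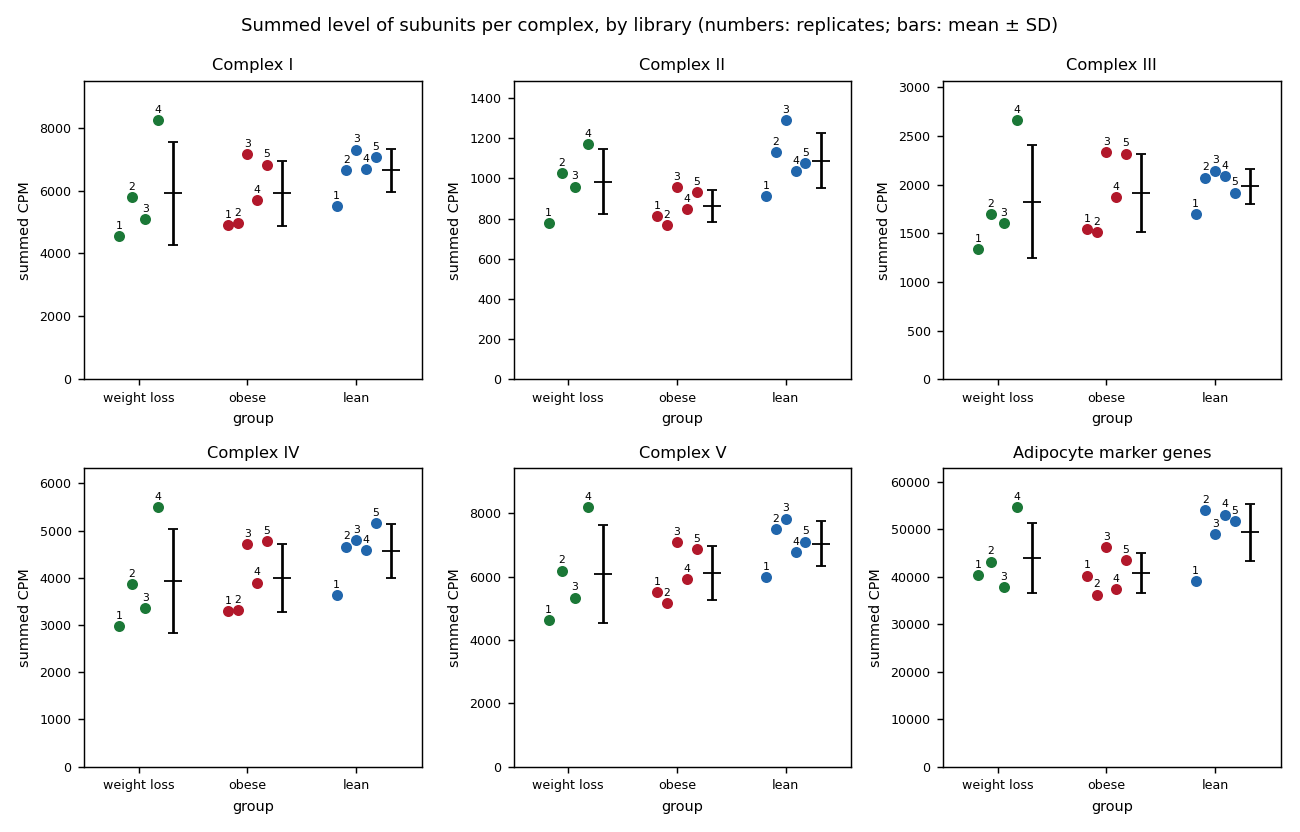
Summed CPM of the members of each complex by group (weight loss, obese, lean), with a numbered point for each library and bars for mean ± SD, and in the last panel the summed CPM of the 12 adipocyte markers. Weight loss replicate 4 stands above the other weight loss libraries in all 5 complexes, and the weight loss libraries overlap both other groups in each.

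Obese against lean fat addressed what the high-fat diet changed. Of 85 members 4 rose and 1 fell in obese fat: Cox4i2, Cox7a2 and Cox7a1 of complex IV and Ndufs4 of complex I were higher, and Sdha of complex II was lower. That is 5.88% of the members, against 9.71% of all genes tested (5.86% higher and 3.85% lower). Most of the remaining values were negative without passing the test: 56 of 85 log2 fold changes were below 0, or 65.9%, against 52.2% of all genes. The median was -0.18 for the members and -0.02 for all genes, and 19 of 85 members had an unadjusted p below 0.05, against 24.8% of all genes. With the summed adipocyte marker level as a covariate the members' median was 0.18. That sum is not a measure of adipocyte content alone, since 1 of its 12 markers rose and 3 fell in obese fat. Among those that fell, Cfd averaged 3686 CPM in obese and 10097 CPM in lean fat (log2 -1.45 ± 0.26, edgeR adjusted p = 0.00334). The marker that rose was Lep, at 1572 CPM in obese and 601 CPM in lean fat (log2 1.39 ± 0.16, edgeR adjusted p = 0.000173). The abundant markers Lpl and Fabp4 had log2 values of -0.07 ± 0.13 and -0.04 ± 0.14 (edgeR adjusted p = 0.783 and 0.897).

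By complex, the median log2 fold change in obese against lean fat was -0.15 over 36 complex I members, -0.33 over 4 of complex II, -0.21 over 9 of complex III, 0.07 over 19 of complex IV and -0.15 over 17 of complex V. The levels of both groups did not overlap for 4 members that were higher in obese fat (Ndufs4, Cox4i2, Ndufa4l2 and Atp5md, against 6.04% of all genes) and 3 that were lower (Ndufa10, Ndufv3 and Sdha, against 4.31%). Of these 7, Ndufs4, Cox4i2 and Sdha passed the adjusted test.

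**Figure D2:**
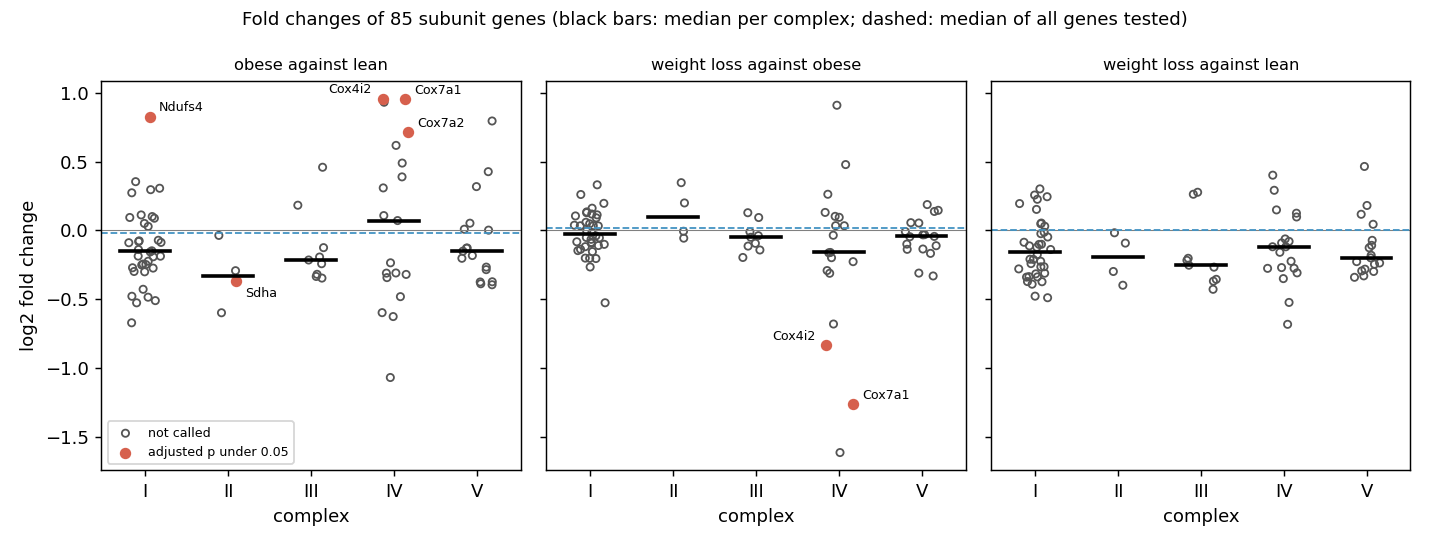
Log2 fold change of each tested member by complex in the 3 comparisons (obese against lean, weight loss against obese, weight loss against lean), with filled points for members called by edgeR at an adjusted p below 0.05, black bars for complex medians and a dashed line for the median of all genes. Called members are 5, 2 and 0 of 85, and most of the others lie below 0 in obese against lean and in weight loss against lean fat.

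Complex IV, the cytochrome c oxidase, held 3 of the 4 members that rose. Cox4i2 (Entrez ID 84682, chr2:152753916-152765039, build GRCm38), the alternative form of regulatory subunit 4 best known from lung, had 13.9, 8.64, 8.36 and 8.12 CPM in weight loss, 20.2, 18.0, 15.1, 17.1 and 16.4 CPM in obese and 8.12, 9.93, 7.10, 11.0 and 8.58 CPM in lean fat. Every obese library was above every other library, and weight loss replicate 1 stood above the other weight loss libraries. Cox4i2 rose 1.94-fold in obese against lean fat (log2 0.96 ± 0.18, edgeR adjusted p = 0.00459). With the summed adipocyte markers added to the model the log2 value was 0.91 and the adjusted p 0.052. When the 4 libraries above 1000 CPM of epididymis markers were dropped, which leaves 2 obese libraries, it was 0.16 at a log2 value of 0.95.

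Cox7a1 (Entrez ID 12865, chr7:30184171-30186030), the heart and muscle form of subunit 7a, which brown fat also makes, had 3.90, 3.10, 3.25 and 5.39 CPM in weight loss, 8.77, 6.06, 12.2, 9.53 and 10.5 CPM in obese and 4.59, 3.05, 7.23, 5.09 and 4.18 CPM in lean fat. Obese replicates 1, 3, 4 and 5 were above all lean libraries, while obese replicate 2 was below lean replicate 3. Cox7a1 rose 1.94-fold in obese against lean fat (log2 0.96 ± 0.26, edgeR adjusted p = 0.0324). The call was lost without any one of obese replicates 1, 3, 4 or 5 or lean replicates 1, 2, 4 or 5 (edgeR adjusted p 0.0545 to 0.0872). Skeletal muscle markers, 7 of 8 past the filter, summed to 40.3 to 224 CPM in weight loss, 79.9 to 298 CPM in obese and 36.5 to 593 CPM in lean fat, and markers of brown or beige adipocytes, 5 of 8 past the filter, to 23.8 to 47.7, 20.8 to 26.6 and 25.8 to 43.6 CPM in those groups. Ucp1, the uncoupling protein of brown fat, was at 0 in all 5 lean libraries and reached 13.7 CPM in weight loss replicate 3 and at most 0.641 CPM in any other. Their part in the Cox7a1 level was not tested.

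Cox7a2 (Entrez ID 12866, chr9:79755241-79771422), the liver form of subunit 7a used in most tissues, had 143, 149.9, 183 and 227 CPM in weight loss, 195, 176, 253, 229 and 238 CPM in obese and 144, 103, 112, 195 and 111 CPM in lean fat. Obese replicate 2 lay below lean replicate 4, and the other 4 obese libraries were above all lean ones. Cox7a2 rose 1.64-fold in obese against lean fat (log2 0.71 ± 0.18, edgeR adjusted p = 0.0262). That call was lost without any one of obese replicates 3, 4 or 5 or lean replicates 2 or 5 (edgeR adjusted p 0.0514 to 0.0683). Per kilobase of transcript Cox7a2 was far the more abundant of both forms, at 267, 331 and 202 CPM per kilobase in weight loss, obese and lean fat, while Cox7a1 was at 9.95, 23.9 and 12.3.

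The other member that rose belongs to complex I. Ndufs4 (Entrez ID 17993, chr13:114287795-114388094), an accessory subunit of the peripheral arm that complex I needs for stable assembly, had 62.8, 74.2, 73.5 and 104 CPM in weight loss, 101, 88.1, 132, 122 and 123 CPM in obese and 78.9, 47.2, 59.9, 85.6 and 47.0 CPM in lean fat. Obese and lean libraries did not overlap, with obese replicate 2 and lean replicate 4 nearest to each other, and weight loss libraries overlapped both. Ndufs4 rose 1.78-fold in obese against lean fat (log2 0.83 ± 0.19, edgeR adjusted p = 0.0154), and when the 4 libraries above 1000 CPM of epididymis markers were dropped the log2 value was 0.96 at an adjusted p of 0.128.

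In complex II, which links the citrate cycle to the respiratory chain, the catalytic subunit fell. Sdha (Entrez ID 66945, chr13:74322255-74350240) had 457, 527, 532 and 523 CPM in weight loss, 425, 388, 406, 389 and 395 CPM in obese and 463, 523, 614, 533 and 446 CPM in lean fat. All 5 obese libraries were below every weight loss and every lean library. Sdha fell in obese against lean fat by 0.36 ± 0.10 on the log2 scale (SE, edgeR adjusted p = 0.0306), with means of 401 ± 15.5 CPM in obese and 516 ± 66.6 CPM in lean fat (SD, n = 5 each). The call was lost without any one of obese replicates 2, 3 or 4 or lean replicates 2, 3 or 4 (edgeR adjusted p 0.0507 to 0.0769), and with the summed adipocyte markers added to the model the log2 value was -0.31 (adjusted p = 0.17). The iron-sulphur subunit Sdhb (log2 -0.60 ± 0.24) and the membrane anchors Sdhc (-0.29 ± 0.17) and Sdhd (-0.04 ± 0.17) did not pass (edgeR adjusted p = 0.137, 0.314 and 0.926).

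**Figure D3:**
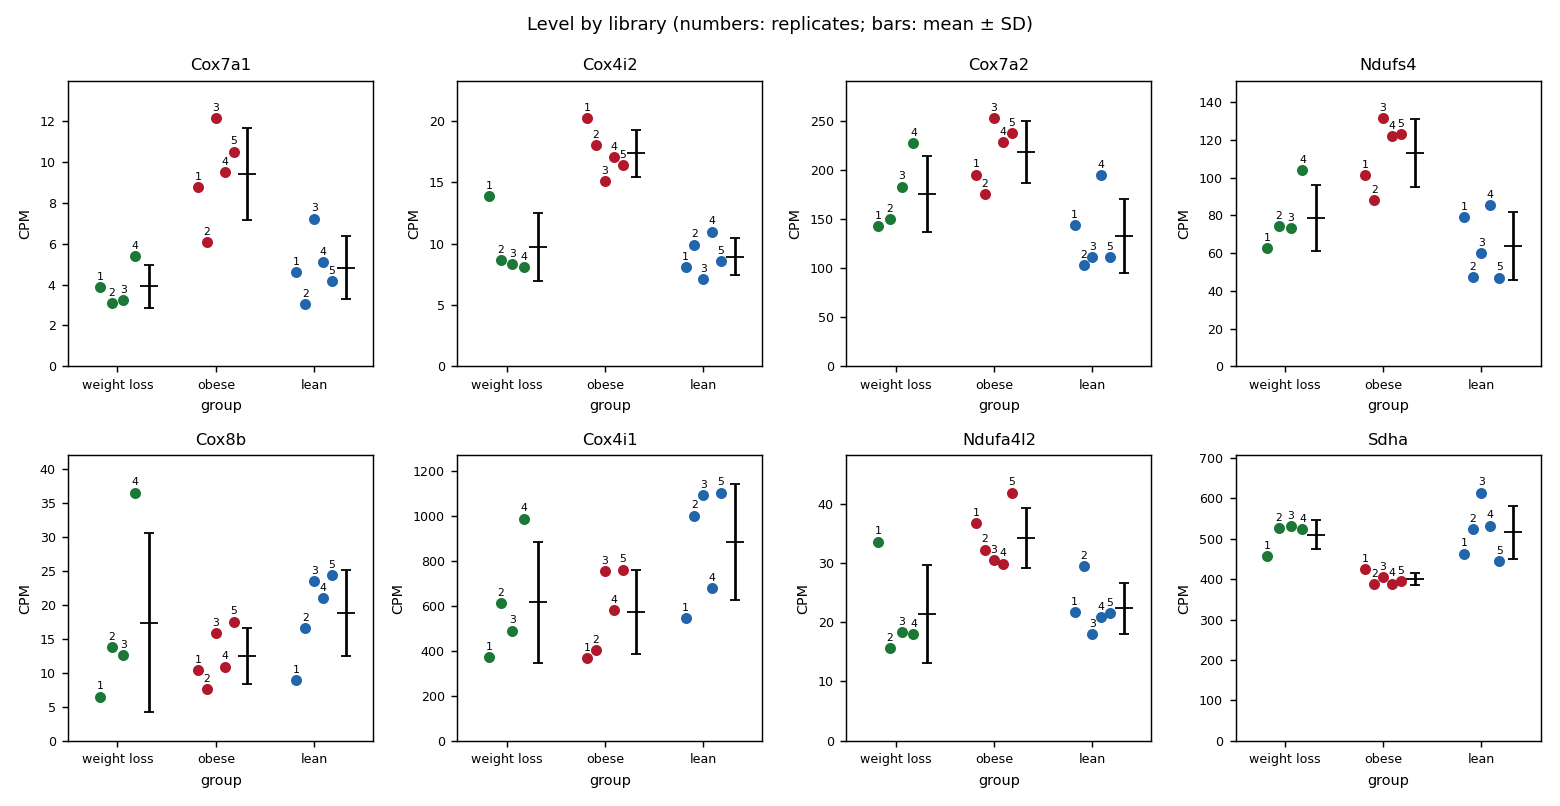
CPM of Cox7a1, Cox4i2, Cox7a2, Ndufs4, Cox8b, Cox4i1, Ndufa4l2 and Sdha in each library by group (weight loss, obese, lean), with a numbered point for each library and bars for mean ± SD. Cox4i2 is higher and Sdha lower in all 5 obese libraries than in any other library.

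Sequences upstream of the start site are shown for the called members with an entry in the RefSeq promoter table (build GRCm38.p6), because they differed in direction and in base composition. The table matched 70 of the 88 members with 1 or more windows of 300 bases, 250 before the start and 50 after it, and the 250 bases before the start are printed 5′ to 3′. They are chr7:30183921-30184170 (plus strand) for Cox7a1, chr9:79759854-79760103 (minus strand) for Cox7a2, chr13:114388095-114388344 (minus strand) for Ndufs4 and chr13:74350241-74350490 (minus strand) for Sdha. The Cox7a2 window counts from the RefSeq start and lies inside the longer gene of the annotation. Capitals mark matches, on either strand, to the motif of the factor NRF1.
Cox7a1: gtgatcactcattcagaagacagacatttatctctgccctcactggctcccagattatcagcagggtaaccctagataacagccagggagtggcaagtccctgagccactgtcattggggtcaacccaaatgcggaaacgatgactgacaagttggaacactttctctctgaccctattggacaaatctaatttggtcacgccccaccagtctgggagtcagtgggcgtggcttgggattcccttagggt
Cox7a2: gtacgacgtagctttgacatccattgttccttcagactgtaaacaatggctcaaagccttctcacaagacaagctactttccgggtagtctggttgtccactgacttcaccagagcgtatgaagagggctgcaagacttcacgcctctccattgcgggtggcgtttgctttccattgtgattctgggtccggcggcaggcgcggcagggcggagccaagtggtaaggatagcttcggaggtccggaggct
Ndufs4: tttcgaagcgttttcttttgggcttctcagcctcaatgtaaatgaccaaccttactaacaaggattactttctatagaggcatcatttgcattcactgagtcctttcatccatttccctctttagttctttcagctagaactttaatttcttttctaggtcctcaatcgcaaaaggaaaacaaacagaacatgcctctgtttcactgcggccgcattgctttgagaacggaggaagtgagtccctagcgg
Sdha: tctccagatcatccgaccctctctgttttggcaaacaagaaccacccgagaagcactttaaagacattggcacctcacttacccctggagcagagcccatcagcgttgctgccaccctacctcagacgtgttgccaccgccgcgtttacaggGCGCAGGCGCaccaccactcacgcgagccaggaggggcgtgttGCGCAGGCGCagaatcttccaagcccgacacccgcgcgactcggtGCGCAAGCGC

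Sdha had 3 NRF1 matches and 21 CpG dinucleotides in its printed bases, while Cox7a1, Cox7a2 and Ndufs4 had no NRF1 match and 4, 14 and 7 CpG. The motifs were searched on both strands of the 300-base windows: GCGCA and GCGC with any 1 base between them for NRF1, CCGGAAG for ETS-family factors and AAGATGGC for YY1, where the end of the ETS motif can overlap the start of the YY1 motif. Of the 70 members 17 (24.3%) had an NRF1 match in at least 1 of their windows, and 5.19% of 27025 genes did. The ETS motif was found for 17 members (24.3%) and 9.93% of genes, and the YY1 motif for 10 members (14.3%) and 3.19% of genes. Ndufs4 had a YY1 match past its start, outside the printed bases. Member windows were also richer in CpG, with a median of 19 against 7 in all windows, and in G and C, with 57.3% against 52.7%. A match is a description of these letters only.

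Several members outside the calls lay near the threshold in obese against lean fat. Atp5md, a small membrane subunit of ATP synthase, had 36.0, 31.5, 55.8, 42.8 and 35.6 CPM in obese and 30.0, 14.0, 22.9, 30.6 and 18.4 CPM in lean fat, with no overlap (log2 0.80 ± 0.24, edgeR adjusted p = 0.0506). Ndufa4l2, a paralogue of Ndufa4 known as a hypoxia-induced gene, had 36.8, 32.3, 30.5, 29.9 and 41.9 CPM in obese and 21.8, 29.5, 18.0, 20.8 and 21.6 CPM in lean fat, again without overlap (log2 0.62 ± 0.20, edgeR adjusted p = 0.0653). The complex I subunits Ndufa10 and Ndufv3 were at 154 ± 18.0 and 352 ± 31.2 CPM in obese against 215 ± 22.6 and 474 ± 78.7 CPM in lean fat (SD, n = 5 each). Their log2 values were -0.49 ± 0.15 and -0.43 ± 0.13 (edgeR adjusted p = 0.0537 and 0.0524). Ndufs7, which carries the last iron-sulphur cluster before ubiquinone, had the lowest log2 value of complex I, -0.67 ± 0.23 (edgeR adjusted p = 0.0742). Ndufa10 and Ndufv3 were picked out after their values were seen. All 5 genes were called under some of the alternatives tried.

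In the main fit complexes III and V held no called member. In complex III Uqcrh had the highest log2 value in obese against lean fat (0.46 ± 0.27) and the core protein gene Uqcrc2 the lowest (-0.35 ± 0.18), and the cytochrome c1 gene Cyc1 had -0.32 ± 0.19 (edgeR adjusted p = 0.329, 0.267 and 0.333). In complex V Atp5g3 had the lowest log2 value (-0.39 ± 0.16), next to Atp5k, subunit e (-0.39 ± 0.25, edgeR adjusted p = 0.14 and 0.371). The subunit c genes Atp5g1, Atp5g2 and Atp5g3, which encode the same mature protein, were at 127 ± 19.5, 191 ± 39.0 and 544 ± 81.6 CPM in obese against 139 ± 11.3, 219.9 ± 28.2 and 716 ± 107 CPM in lean fat (SD, n = 5 each). Their log2 values were -0.13, -0.20 and -0.39, none of which passed (edgeR adjusted p = 0.689, 0.531 and 0.14).

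Weight loss against obese fat addressed what 1 week back on chow changed. Of 85 members 2 fell, Cox7a1 and Cox4i2, and none rose, or 2.35% against 1.62% of all genes (0.736% higher and 0.881% lower). Both had risen in obese against lean fat. The obese libraries serve in both comparisons, so the opposite signs are not independent. The median log2 fold change was -0.04 for the members and 0.02 for all genes, 52 of 85 were negative, against 47.1% of all genes, and 5 had an unadjusted p below 0.05, against 14.3% of all genes.

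Cox7a1 averaged 3.91 ± 1.05 CPM in weight loss (SD, n = 4) and 9.41 ± 2.26 CPM in obese fat (SD, n = 5), and the highest weight loss library lay below the lowest obese one. Cox7a1 fell by 1.26 ± 0.28 on the log2 scale (SE, edgeR adjusted p = 0.0376). The call was lost without any one of weight loss replicates 1, 2 or 3 or obese replicates 1, 3, 4 or 5 (edgeR adjusted p 0.0635 to 0.118). Cox4i2 averaged 9.75 ± 2.77 CPM in weight loss (SD, n = 4) and 17.4 ± 1.93 CPM in obese fat (SD, n = 5), also without overlap. It fell by 0.83 ± 0.19 (SE, edgeR adjusted p = 0.0439), and the call was lost without any one of weight loss replicates 2, 3 or 4, any obese replicate, or lean replicates 2 or 5 (edgeR adjusted p 0.0514 to 0.134). Non-overlap toward lower levels was seen for these 2 members, against 3.27% of all genes, and toward higher levels for Sdha alone, against 3.38%.

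Sdha averaged 509.8 ± 35.6 CPM in weight loss (SD, n = 4) and 401 ± 15.5 CPM in obese fat (SD, n = 5). The difference, log2 0.35 ± 0.10, did not pass (edgeR adjusted p = 0.12). Ndufa4l2 had 33.6, 15.6, 18.4 and 17.9 CPM in weight loss fat, so that replicate 1 lay within the obese range and the other 3 libraries below it (log2 -0.68 ± 0.21, edgeR adjusted p = 0.143). Ndufs4 and Cox7a2 had log2 values of -0.53 ± 0.20 and -0.31 ± 0.20 (edgeR adjusted p = 0.247 and 0.525). Their weight loss levels, 78.6 ± 17.7 and 176 ± 38.6 CPM (SD, n = 4), lay between the obese means of 113 and 218 CPM and the lean means of 63.7 and 133 CPM. At the ends of complexes III and V, Uqcrc2 had 0.13 ± 0.19 and Uqcrh -0.20 ± 0.29, and Atp5k 0.19 ± 0.26 and Atp5md -0.33 ± 0.26 (edgeR adjusted p 0.629 to 0.836). The members' median in this comparison took either sign when 1 library was left out. It was -0.25 without weight loss replicate 4, 0.09 without weight loss replicate 1 and 0.02 without replicate 3, 0.01 without obese replicate 3 or 5, and 0.05 in a model that includes the summed epididymis markers.

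Weight loss against lean fat addressed what remained different after the switch back to chow. No member was called by edgeR's adjusted test, against 0.0329% of all genes. None was called by DESeq2, against 243 of 15208 genes, or by limma-voom, against 1 of 15208. An unadjusted p below 0.05 was reached by 3 of 85 members, against 11.4% of all genes, and no member's groups were apart, against 1.58% of all genes higher and 0.704% lower without overlap. In all, 65 of 85 log2 fold changes were negative, or 76.5%, against 49.5% of all genes, with a median of -0.20 for the members and 0.00 for all genes. The medians of complexes I to V were -0.16, -0.20, -0.25, -0.12 and -0.20. The median over the members was -0.43 without weight loss replicate 4, -0.05 without weight loss replicate 1, -0.10 without weight loss replicate 3 and -0.12 without lean replicate 3, and -0.03 with the adipocyte level as a covariate.

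At the ends of the complexes, Ndufa11 of the complex I membrane arm had a log2 value of -0.49 ± 0.24 in weight loss against lean fat, Uqcrq of complex III -0.43 ± 0.36, and Atp5md 0.47 ± 0.25 (edgeR adjusted p = 0.455, 0.676 and 0.51). Uqcrb, a small complex III subunit that binds ubiquinone, had 0.28 ± 0.18, Sdhb -0.40 ± 0.26 and Atp5g3 -0.34 ± 0.17 (edgeR adjusted p = 0.578, 0.581 and 0.472). The 5 members called in obese against lean fat had log2 values of 0.13 ± 0.19 for Cox4i2, -0.31 ± 0.28 for Cox7a1, 0.40 ± 0.19 for Cox7a2, 0.30 ± 0.20 for Ndufs4 and -0.02 ± 0.10 for Sdha, with edgeR adjusted p between 0.45 and 0.967. A p that misses the threshold does not show that the levels were equal.

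**Figure D4:**
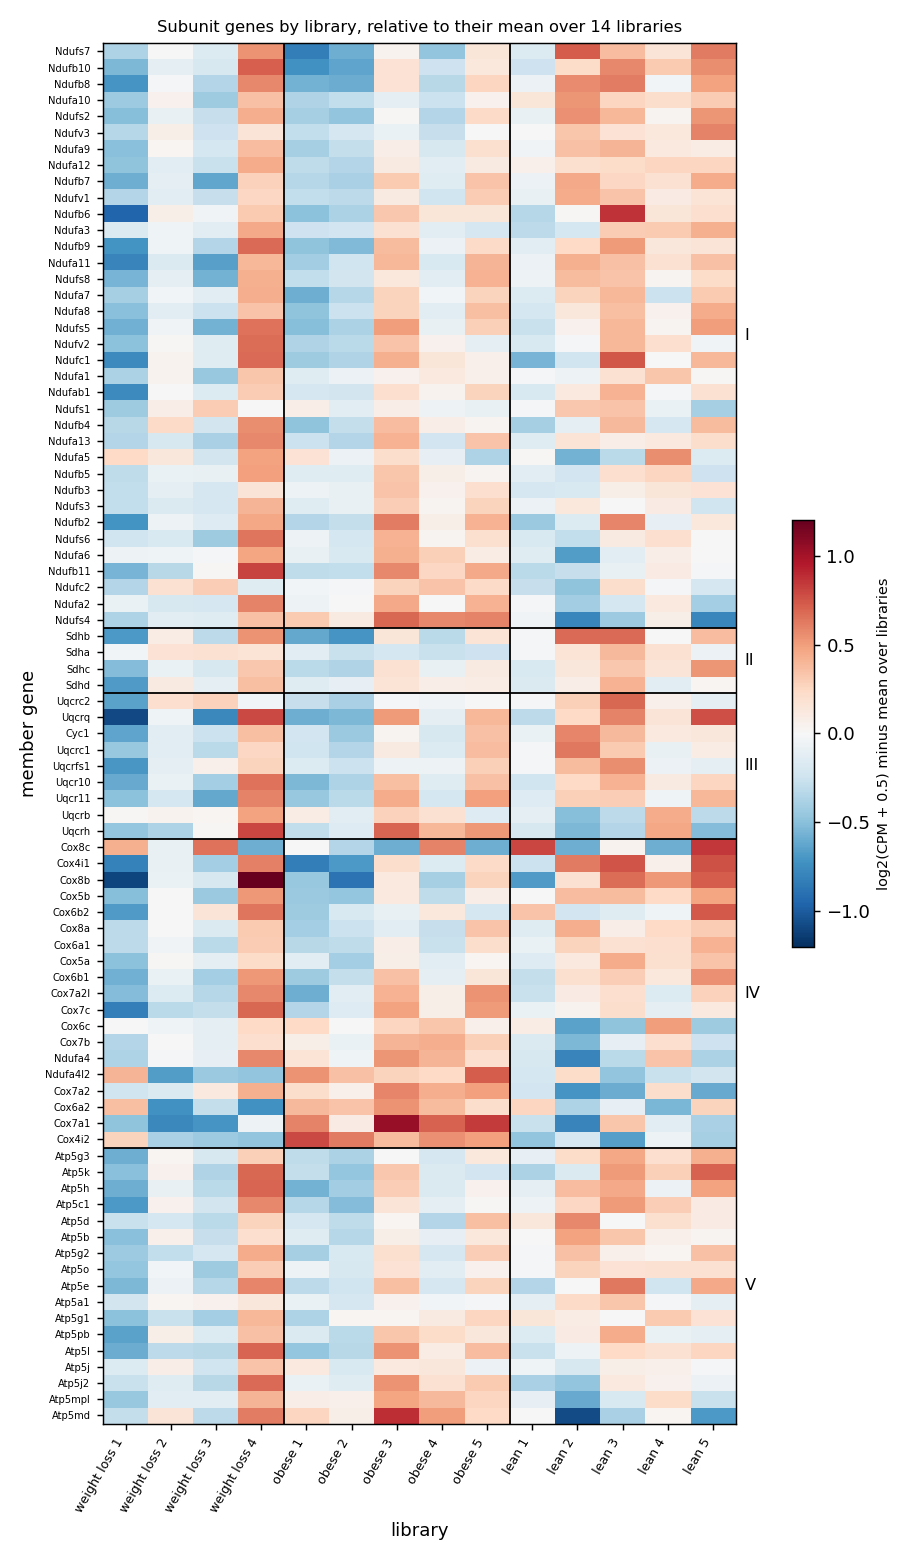
Log2 of CPM plus 0.5 of each tested member (rows, grouped by complex) in each library (columns, ordered weight loss, obese, lean) relative to the member's mean over all 14 libraries. Weight loss replicate 4 is high and weight loss replicate 1 low across most rows.

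The forms of subunit 4 differed widely in level. Cox4i1, the usual form of subunit 4, had 370.1, 612, 489.7 and 988 CPM in weight loss, 366, 403, 755, 579 and 761 CPM in obese and 545, 1001, 1094, 677 and 1103 CPM in lean fat. The groups overlapped, and its log2 value in obese against lean fat was -0.63 ± 0.29 (edgeR adjusted p = 0.193), of opposite sign to Cox4i2. Per kilobase Cox4i1 stood at 815, 759 and 1171 CPM in weight loss, obese and lean fat, against 13.4, 23.8 and 12.3 for Cox4i2.

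Cox8b, the form of subunit 8 found in muscle and brown fat, had 6.49, 13.7, 12.7 and 36.5 CPM in weight loss, 10.4, 7.60, 15.8, 10.9 and 17.5 CPM in obese and 8.87, 16.5, 23.5, 21.0 and 24.3 CPM in lean fat. Weight loss replicate 4 was above all other libraries and the groups overlapped (obese against lean, log2 -0.60 ± 0.40, edgeR adjusted p = 0.391). Cox8a, the form of most tissues, averaged 561 ± 109 CPM in weight loss (SD, n = 4), 525 ± 116 CPM in obese and 656 ± 99.1 CPM in lean fat (SD, n = 5 each). Cox8c, known from testis, reached at most 0.851 CPM in any library and the muscle form Cox6a2 at most 0.705 CPM, so that their log2 values rest on few counts.

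Among the other sets, the ubiquitous Cox6a1 averaged 599 ± 129 CPM in weight loss (SD, n = 4), 584 ± 104 CPM in obese and 725 ± 89.3 CPM in lean fat (SD, n = 5 each). Cox6b1, of most tissues, was at 529.9, 543 and 639 CPM in the weight loss, obese and lean groups, and Cox6b2, known from testis, at 8.69, 7.24 and 9.18 CPM. Cox7a2l was at 150.2, 168 and 160.0 CPM, and Cox7b at 56.2, 68.8 and 52.5 CPM. Ndufa4 was at 236, 271 and 193 CPM. None of these 6 passed the edgeR test in any comparison of the main fit. The lowest adjusted p there were 0.116 for Cox7b and 0.153 for Ndufa4, in obese against lean fat. Ndufa4 was called higher in obese against lean fat with the replicate number as a block (edgeR adjusted p = 0.0489) and without lean replicate 4 (edgeR adjusted p = 0.0497).

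Genes around the pathway gave few calls, and none in either weight loss comparison. Over all genes tested, 5.86% were called higher and 3.85% lower in obese against lean fat. Of 38 tested assembly factors 2 rose in obese against lean fat: Cox16, of complex IV assembly, with 28.9, 30.3, 32.1, 35.9 and 29.5 CPM in obese and 20.2, 14.1, 19.2, 23.2 and 18.9 CPM in lean fat (log2 0.71 ± 0.14, edgeR adjusted p = 0.00596), and Tmem126b, of complex I assembly (log2 0.82 ± 0.19, edgeR adjusted p = 0.0142). Of 13 citrate cycle genes Suclg2, a succinyl-CoA ligase subunit, fell, with 56.7, 50.8, 65.8, 57.7 and 51.8 CPM in obese and 70.4, 86.6, 118, 89.3 and 84.5 CPM in lean fat (log2 -0.67 ± 0.17, edgeR adjusted p = 0.0223). Cs, the citrate synthase often used as an index of mitochondrial content, averaged 441 ± 83.4 CPM in weight loss (SD, n = 4), 441 ± 44.8 CPM in obese and 583 ± 62.2 CPM in lean fat (SD, n = 5 each), and did not pass (obese against lean, log2 -0.40 ± 0.13, edgeR adjusted p = 0.0575).

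Among 14 regulators of mitochondrial gene expression 2 fell in obese against lean fat, where 3.85% of all genes were called lower. Ppargc1b, a coactivator that drives mitochondrial genes, had 7.06, 5.79, 1.99 and 5.23 CPM in weight loss, 2.65, 2.32, 2.71, 1.99 and 4.13 CPM in obese and 7.22, 10.9, 5.20, 10.4 and 12.2 CPM in lean fat. All obese libraries were below all lean ones (log2 -1.73 ± 0.34, edgeR adjusted p = 0.006). Nrf1, a transcription factor of nuclear genes for mitochondrial proteins, fell by 0.38 ± 0.11 (SE, edgeR adjusted p = 0.0422), with 18.5 ± 1.07 CPM in obese and 24.1 ± 2.82 CPM in lean fat (SD, n = 5 each). Ppargc1a, the related coactivator, and Esrra, its nuclear receptor partner, did not pass, with log2 values of -0.95 ± 0.33 and -0.46 ± 0.19 (edgeR adjusted p = 0.0793 and 0.147). The 14 regulators summed to 296 to 315 CPM in weight loss, 247 to 279 CPM in obese and 304 to 328 CPM in lean fat.

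None of 7 carriers and exchange proteins was called in any comparison by edgeR's adjusted test. Cycs, the cytochrome c that carries electrons between complexes III and IV, averaged 114 ± 25.0 CPM in weight loss (SD, n = 4), 158 ± 29.9 CPM in obese and 112 ± 18.7 CPM in lean fat (SD, n = 5 each), with a log2 value of 0.50 ± 0.17 in obese against lean fat (edgeR adjusted p = 0.0722). Neither of the 2 uncoupling proteins that passed the filter was called. Atpif1, the inhibitor of ATP synthase, had a log2 value of 0.49 ± 0.22 in the same comparison (edgeR adjusted p = 0.19). The 13 subunits encoded by mitochondrial DNA were not analysed here.

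Base composition moved with the signs of the members in both comparisons with lean fat. In obese against lean fat the 29 members with a positive log2 value had a median GC content of 49.8% in their protein-coding transcripts, and the 56 with a negative one 54.0%, against 50.1% and 52.1% for all genes of those signs. In weight loss against lean fat the medians were 51.2% and 53.8% for 20 and 65 members, against 49.2% and 53.1% for all genes. In weight loss against obese fat the rank correlation of log2 value and GC content was 0.125 for the members and -0.0787 for all genes. Libraries differed in how their levels followed GC content, with a rank correlation over all genes of -0.405 in weight loss replicate 3 to 0.371 in lean replicate 5. After a correction for GC content in each library, which was chosen after the data were seen, all 5 calls in obese against lean and both in weight loss against obese fat were kept. Ndufa10, Ndufv3 and Ndufa4l2 were then called as well in obese against lean fat. The members' median was then -0.18 in obese against lean and -0.20 in weight loss against lean fat.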

How the data were processed

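The authors deposited raw expected counts by Entrez ID in 1 table, where 34.8% of values were fractional. The submitters' processing notes name the build mm10. How reads were aligned, counted, assigned to strands and shared between related genes is not stated there, and was not given in the sources used here. Symbols came from RefSeq and GENCODE M21. There were 36172 lines for 35794 IDs, since 74 IDs were repeated, never with reads on more than 1 of their lines. Of 11 pseudogenes with member-type symbols 1 had reads, Ndufs5-ps, and no called member shared exons with another gene. Cox7a1 and Cox7a2, and the Atp5g genes, are paralogues, so a misassignment of reads between them cannot be told from these counts.

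Counts were rounded to whole numbers. Libraries under 1000000 counts were left out, which removed weight loss replicate 5, whose near-empty state was known from earlier results and which the series' design text does not count. Genes were kept by filterByExpr, scaled by TMM and fitted over all 3 groups with edgeR 4.0.16 in R 4.3.3 (quasi-likelihood, package defaults, two-sided, Benjamini-Hochberg over 15208 genes). The SE was derived from the fold change and the F statistic (absolute log2 value divided by the root of F). The fit was tested on simulated counts with set fold changes, drawn independently for each gene. These hold no difference between libraries in epididymis markers or in GC content, so the test does not bear on those.

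The members and lists were chosen with earlier results of these data known. Named genes were complex II and Cyc1, paralogue sets, up to 4 called members per complex and comparison, the highest and lowest fold change per complex, and the most abundant member per complex. Alternatives were DESeq2 1.42.0 and its size factors, limma-voom 3.58.1, library size or upper quartile scaling, no filter or at least 1 CPM in at least 5 libraries, 2 groups only, the replicate block, marker covariates, libraries left out and an adjusted p of 0.01. A GC correction was added after the data were seen. Tables and plots used Python 3.11.15, pandas 2.3.3 and matplotlib 3.10.9.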

Additional observations from a re-analysis of the deposited data

Results flagged for a closer look

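Within the groups, 7 of 117 sets of levels examined held a library far from the others relative to the group's whole range. Chance flags about 1 in 20 groups. Weight loss replicate 4 stood high for Uqcrb, at 394 CPM against 285 to 291 CPM in the other weight loss libraries, and for Ndufa3, at 400.2 CPM against 259 to 282 CPM. Ndufa3 was also high in obese replicate 3, at 332 CPM against 246 to 267 CPM in the other obese libraries. Weight loss replicate 1 stood high for Cox4i2, at 13.9 CPM against 8.12 to 8.64 CPM, and for Ndufa4l2, at 33.6 CPM against 15.6 to 18.4 CPM. The same library was low for Sdha, at 457 CPM against 523 to 532 CPM in the other weight loss libraries. Uqcrh was high in lean replicate 4, at 458 CPM against 227 to 289 CPM in the other lean libraries.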

How the results depend on the processing

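No result changed sign while called under any alternative. In obese against lean fat, where 5 members were called, library size only and the filter at 1 CPM each gave 8, DESeq2's Wald test 10, a fit of only both groups 9 and the GC correction 8. The adipocyte level as a covariate gave 4: Cox7a1, Cox7a2, Ndufs4 and Atp5j2. Atp5j2, of complex V, was not called in the main fit (log2 0.67 with this covariate, edgeR adjusted p = 0.0487). The epididymis level as a covariate gave 2, leaving out the 4 libraries richest in epididymis markers 0, and an adjusted p of 0.01 gave 1. Calls over all genes at an adjusted p of 0.01 were not counted. Leaving out 1 library gave 2 to 9. Calls over all genes moved too, from 1477 of 15208 in the main fit. They were 1396 with library size only, 1588 of 14081 with the filter at 1 CPM and 2260 with DESeq2. A fit of only both groups gave 1572 of 14686, the GC correction 1796, the adipocyte covariate 442 and the epididymis covariate 1101. Without the 4 richest libraries 125 of 15420 genes were called, and leaving out 1 library gave 849 to 1673. In weight loss against obese fat, where 2 were called, no filter, a fit of only both groups and the adipocyte level as a covariate each gave 1, and DESeq2 gave 4. The epididymis covariate, leaving out the 4 richest libraries and an adjusted p of 0.01 each gave 0, and leaving out 1 library 0 to 2. Over all genes the main fit called 246 in this comparison, and no filter 189 of 19892. A fit of only both groups gave 225 of 14790, the adipocyte covariate 298 and DESeq2 691. The epididymis covariate gave 44, leaving out the 4 richest libraries 20 of 15420, and leaving out 1 library 141 to 265. In weight loss against lean fat the count was 0 under all alternatives run. Over all genes the main fit called 5 there, DESeq2 243, the GC correction 4 and the adipocyte covariate 1. The epididymis covariate, a fit of only both groups and leaving out the 4 richest libraries each gave 0. Leaving out 1 library gave 0 to 130, the most without weight loss replicate 4. Fits with libraries left out have smaller groups, and the cause of these changes was not tested.

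With the replicate number as a block, 9 members were called in obese against lean, 1 in weight loss against obese (Cox7a1) and 0 in weight loss against lean fat. In weight loss against obese fat Cox4i2 had an edgeR adjusted p of 0.0608. Over all 15208 genes the block gave 1618, 172 and 2 calls in these comparisons. The series describes the samples as independent, and the numbers were not taken as pairs. Deviations from the group means, over all genes tested, had correlations of -0.553 to 0.399 between same-numbered samples. Among libraries of the other groups, 3 of 14 libraries correlated best with their own number. These values cannot settle whether the numbers mark pairs.

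With the epididymis covariate the edgeR adjusted p in obese against lean fat was 0.0669 for Cox7a1 (log2 0.97), 0.0668 for Cox7a2 (0.54) and 0.109 for Sdha (-0.32), while Cox4i2 and Ndufs4 kept their calls. Without the 4 richest libraries it was 0.218 for Cox7a1 (log2 1.09), 0.225 for Cox7a2 (0.79) and 0.383 for Sdha (-0.35); with all libraries the log2 values were 0.96, 0.71 and -0.36 for these genes. In weight loss against obese fat the covariate gave 0.205 for Cox7a1 (log2 -1.29) and 0.225 for Cox4i2 (-0.91). Cox8c, Cox6a2 and Cox7b2 are near the detection limit, where depth limits any comparison.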

Other observations

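Markers of other cells in the fat pad are given for the samples in which the subunits were measured. Over all genes tested, 5.86% were called higher and 3.85% lower in obese against lean fat. Macrophage markers summed to 600.2 to 1369.8 CPM in weight loss, 995 to 1551 CPM in obese and 441 to 984 CPM in lean fat, and 7 of 10 rose in obese against lean fat by edgeR's adjusted test. Adipocyte progenitor markers summed to 1266 to 2287 CPM in weight loss, 1319.7 to 1939 CPM in obese and 815 to 1687 CPM in lean fat, and 3 of 8 rose in obese against lean fat. Of the 12 adipocyte markers 1 rose and 3 fell in obese against lean fat, and 1 fell in weight loss against obese fat. Endothelial markers summed to 966 to 1941 CPM in weight loss, 1227 to 1536 CPM in obese and 1055 to 1566 CPM in lean fat, with 1 of 8 lower in obese against lean fat, and mesothelial markers to 278 to 418 CPM in weight loss, 294 to 468 CPM in obese and 179 to 411 CPM in lean fat, with 1 of 6 higher. Red cell markers summed to 997 to 1957 CPM in weight loss, 1023 to 1927 CPM in obese and 1418 to 2107 CPM in lean fat, markers of T and B cells to 7.62 to 22.0 CPM in weight loss, 7.44 to 23.7 CPM in obese and 10.1 to 24.1 CPM in lean fat, and testis and sperm markers to 2.65 to 12.5 CPM in weight loss, 2.99 to 79.9 CPM in obese and 0.426 to 87.0 CPM in lean fat. Of the tested brown or beige adipocyte markers 1 rose in obese against lean fat, and 1 epididymis marker, Lcn5, was called higher. The Lcn5 call rests on obese replicate 4, at 1162 CPM, with at most 4.30 CPM in any other library. None of the lists of red cell, lymphocyte, sperm and skeletal muscle markers held a called gene in any comparison. The part of these cell types in the subunit levels was not tested.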
